A study of Mus musculus with 3 samples.

Results

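A set of 10 genes of the interleukin 1, interleukin 6 and tumour necrosis factor families was followed through the cells of the fracture callus: the ligands Il1b, Tnf, Osm, Il6 and Lif, the interleukin 1 receptor antagonist Il1rn, the decoy receptor Il1r2, and the signalling receptors Il1r1, Il6st and Osmr. They were taken by name as cytokines of early fracture inflammation and their receptors, and make up 10 of the 32285 gene rows of the count matrices. Each of the 10 had UMIs (unique molecular identifiers, which count captured transcripts) in the kept cells of every library. The callus was taken on day 7 after a pinned femoral midshaft fracture in 9-week-old female C3H/HeJ mice, an inbred strain that heals fractures slowly and is known for a defective Tlr4, the receptor for bacterial endotoxin. One library came from callus of mice given YKL-05-099, an inhibitor of the salt-inducible kinases, at 15 mg/kg, 1 from mice given PTH 1-34, the active fragment of parathyroid hormone, at 100 µg/kg, and 1 from controls given the PBS vehicle, all injected under the skin every day. Every group had the same pin and fracture, marrow was avoided at dissection, and the labels do not say whether animals were pooled. With 1 library per group there was no replicate and no test, and every interval given covers counting error only, at 95%.

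Interleukin 1 beta is an alarm cytokine made mainly by myeloid cells; it signals through Il1r1 with the accessory chain Il1rap, while the antagonist Il1rn occupies Il1r1 without signalling and the decoy Il1r2 binds the ligand without a signalling tail. Interleukin 6, oncostatin M (Osm) and leukaemia inhibitory factor (Lif) all signal through the shared chain gp130 (Il6st), paired with Il6ra, Osmr or Lifr, and act through the transcription factor STAT3 and its feedback inhibitor Socs3. Tumour necrosis factor (Tnf) acts through Tnfrsf1a and Tnfrsf1b. In fractured bone these cytokines belong to the early inflammatory phase that precedes cartilage callus, and mice lacking Tnf receptors have been described with delayed removal of callus cartilage.

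The promoters of Il6 and Il1b are shown because these ligands came from different cells of the callus, Il6 from vessel-wall cells and Il1b from neutrophils. Each line gives the 250 bases before the RefSeq start in GRCm38.p6, on the gene's own strand and in the reference strain, not C3H/HeJ. Capitals mark matches to the motifs searched on both strands: the NF-kB consensus, the CRE core TGACG, the AP-1 site TGANTCA, the C/EBP site TTGCNNAA and the STAT site TTCNNNGAA.
Il6 chr5:30012864-30013113, plus strand: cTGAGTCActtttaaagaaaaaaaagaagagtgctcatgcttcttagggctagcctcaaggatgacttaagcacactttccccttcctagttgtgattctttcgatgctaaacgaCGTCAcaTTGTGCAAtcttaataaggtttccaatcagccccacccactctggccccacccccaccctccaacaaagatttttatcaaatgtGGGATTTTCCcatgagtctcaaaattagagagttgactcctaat
Il1b chr2:129371140-129371389, minus strand: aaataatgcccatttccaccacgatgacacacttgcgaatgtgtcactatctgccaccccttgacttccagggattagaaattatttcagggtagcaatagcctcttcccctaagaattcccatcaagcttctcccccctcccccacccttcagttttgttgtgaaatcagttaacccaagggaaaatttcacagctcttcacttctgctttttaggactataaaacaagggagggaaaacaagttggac
The Il6 window held an AP-1 site from -249 to -243, a CRE core from -135 to -131 on the other strand, a C/EBP site from -128 to -121 on the other strand and the NF-kB consensus from -44 to -35, counted from the start, and no STAT site. The Il1b window held none of the 5. Over the 32851 promoter windows of the table, 7.25% held the NF-kB consensus, 17.8% the CRE core, 6.75% the AP-1 site, 9.56% the C/EBP site and 7.02% the STAT site. These matches are letters in a window, not measured binding.

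The libraries held 1500 YKL, 5286 PTH and 8021 control barcodes with 19424073, 33981167 and 55250651 UMIs. Cells with at least 500 genes and at most 10% mitochondrial UMIs numbered 598, 1906 and 2904 after Scrublet, a doublet caller, had removed 8, 7 and 40 barcodes, fewer than droplet loading gives, so doublets of 2 cells remain among them. The median kept cell had 25686 UMIs in YKL, 12284 in PTH and 11632.5 in control, and the libraries shared at most 1 kept barcode. Clustering without the 10 genes gave 24 clusters, named from marker genes. Chondrocytes were 76.6% of YKL cells, 44.3% of PTH cells and 60.7% of control cells. The myeloid and vascular classes were uneven: neutrophils numbered 15 in YKL, 21 in PTH and 459 in control, macrophages or monocytes 20, 87 and 164, endothelial cells 50, 286 and 181, pericytes or smooth muscle cells 10, 62 and 79, and fibroblasts or mesenchymal progenitors 17, 278 and 109. Whether these counts reflect cell numbers in the callus was not tested. No cluster met the rule for osteoblasts. All 10 chondrocyte markers were detected in that class in every library. Levels below are CPM, the gene's UMIs scaled to 1000000 summed UMIs of a class in a library.

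Il1b (ENSMUSG00000027398, chr2:129364570-129371139, minus strand, GRCm38 like all coordinates here) came almost wholly from myeloid cells. Neutrophils, the first leukocytes to enter a wound, gave 401 of 445 Il1b UMIs in YKL (90.1%), 547 of 681 in PTH (80.3%) and 4391 of 5062 in control (86.7%). Macrophages or monocytes gave a further 9.89%, 16.9% and 8.65%. Within neutrophils the Il1b level was 6467 CPM in YKL (5850 to 7132), 12521 in PTH (11494 to 13616) and 2452 in control (2380 to 2526). The intervals did not overlap, but the YKL and PTH values rest on 15 and 21 cells, under the 50 cells set for a ratio, so none is given. Single YKL neutrophils held 0 to 93 Il1b UMIs with a median of 24, PTH neutrophils 1 to 49 with a median of 24, and control neutrophils 0 to 73 with a median of 3. Median depth was 2611 UMIs for YKL neutrophils, 1923 for PTH and 3305 for control, so the deeper control cells were not the richer ones. The control neutrophils included a cluster of 30 cells, all from control, with 60.6% haemoglobin UMIs and a median depth of 7618 UMIs. Its part in the control levels and depth was not tested.

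Thinned to 2000 UMIs a cell, 8 of 11 YKL neutrophils (72.7%), 9 of 9 PTH neutrophils and 166 of 356 control neutrophils (46.6%) held Il1b. Shallower cells, 4 of YKL, 12 of PTH and 103 of control, were left out. Without thinning the shares were 80.0%, 100% and 60.8%. Chondrocytes served as a non-myeloid comparison. Thinned, they held Il1b in 0 of 437 YKL cells (allowing up to 0.686%), 0.122% of 820 PTH cells and 0.117% of 1714 control cells. Unthinned chondrocytes, with median depths of 29115, 17380 and 16215.5 UMIs, held Il1b in 0%, 0.592% and 0.965% of cells. The neutrophil shares thus stood well above those of chondrocytes. Whether the chondrocyte Il1b was free RNA was not tested.

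**Figure D1:**
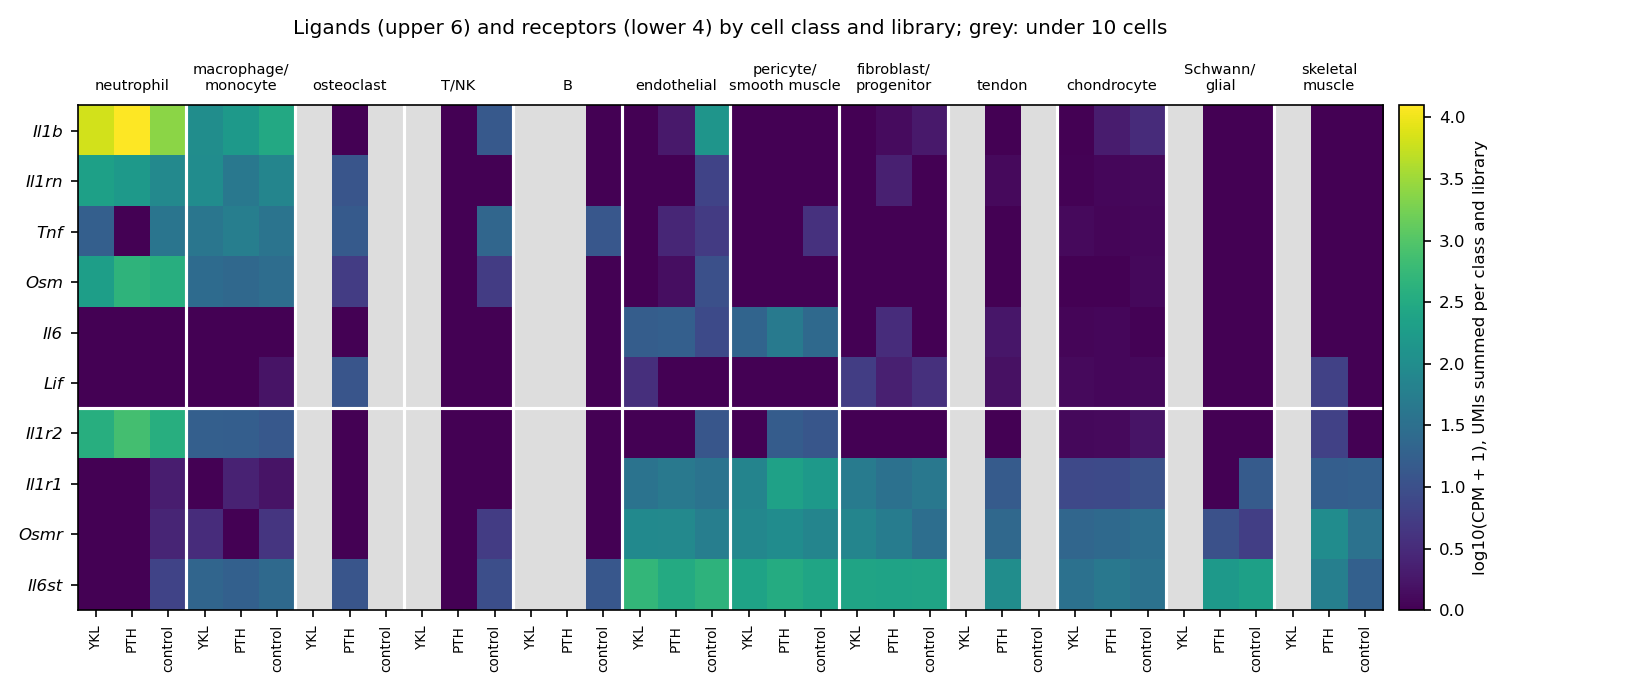
Level of each of the 10 genes (ligands and antagonist above, receptors below) by cell class and library, as the colour of log10(CPM + 1), with the libraries of a class in the order YKL, PTH, control and grey where a library had under 10 cells. Il1b, Osm and Il1r2 are brightest in neutrophils, Il6 appears in endothelial cells and pericytes, and Il6st, Osmr and Il1r1 in the stromal and vascular classes.

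The neutrophils fell into clusters that differed widely in Il1b, and the libraries drew on them unequally. A cluster of 185 cells with Ccl4, Hcar2 and Cxcl2, a neutrophil-attracting chemokine, among its top 10 genes held 11 of 15 neutrophils in YKL, 15 of 21 in PTH and 159 of 459 in control. Its Il1b level was 15428 CPM in YKL (393 UMIs), 18017 in PTH (477 UMIs) and 9570 in control (3090 UMIs). In that cluster the libraries stood closer together than over all neutrophils. A cluster of 67 cells with high levels of the granule genes Camp, Ngp and Ltf, made in immature neutrophils, had 21.9 CPM over all libraries, and 65 of its cells were control cells. A cluster of 200 cells between them in Il1b, 192 of them from control, had 1448 CPM. Over these clusters Il1b was high where Camp was low: Camp had 5.33 CPM in the Ccl4 cluster, 5489.5 in the cluster of 200 and 44970 in the Camp cluster.

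Among macrophages or monocytes, Il1b was at 103 CPM in YKL (75 to 138), 164 in PTH (136 to 197) and 292 in control (265 to 321). A cluster with Ms4a6c and Ccr2, the chemokine receptor of recruited monocytes, was the highest, at 265 CPM in YKL, 360 in PTH and 1092 in control. A cluster with C1qa, Pf4 and Trem2, genes of resident-type macrophages, had 0 Il1b UMIs in 5 YKL and 28 PTH cells and 144 CPM in control. Neutrophil markers in this class also differed between libraries, in another order: their summed level was 11703 CPM in YKL, 95.7 in PTH and 8292 in control, with 1, 3 and 0 of the 11 markers at 0. For S100a8, one of these markers, a single cell of the 20 in YKL held 1748 of the 1782 UMIs. In control, 18 of the 164 cells held at least 10 UMIs of S100a8, a gene abundant in neutrophils, and 180 of the 438 Il1b UMIs. YKL had 2 such cells, and in PTH none was found. Without the cells of at least 10 S100a8 UMIs, Il1b was at 98.3 CPM in YKL, 164 in PTH and 196 in control. Whether those cells carried neutrophil RNA or were monocytes with S100a8 of their own was not tested.

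Il1b outside the myeloid classes lay mostly in cells rich in S100a8. Control endothelial cells had 167 Il1b UMIs (137 CPM), held by 8 of 181 cells. The 8 control endothelial cells with at least 10 S100a8 UMIs held 157 of the 167. PTH endothelial cells had 2 Il1b UMIs (0.879 CPM) and YKL endothelial cells had 0, below 7.62 CPM. In the other 173 control endothelial cells Il1b was at 8.82 CPM. Chondrocyte Il1b was at 0 in YKL, 1.05 CPM in PTH (16 UMIs) and 2.16 CPM in control (62 UMIs), and 37 of the 62 control UMIs came from 2 S100a8-rich cells. The other 25 came from cells under 10 S100a8 UMIs. Per 100 S100a8 UMIs there were 11.3 Il1b UMIs in control endothelial cells, 12.8 in control chondrocytes and 1.98 in control neutrophils. Whether this Il1b was RNA of neutrophils was not tested.

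Il1rn (ENSMUSG00000026981, chr2:24336853-24351494, plus strand) came from both myeloid classes. Neutrophils gave 13 of 55 UMIs in YKL (23.6%), 7 of 50 in PTH (14.0%) and 148 of 270 in control (54.8%). Macrophages or monocytes gave 74.5%, 60.0% and 40.0%. The level in neutrophils was 210 CPM in YKL (112 to 359), 160 in PTH (64.4 to 330) and 82.7 in control (69.9 to 97.1). In macrophages or monocytes it was 95.6 CPM in YKL, 42.8 in PTH and 72.0 in control. A single YKL macrophage held 36 of that library's 41 macrophage UMIs, so the YKL level there is that of 1 cell. Among YKL neutrophils 1 cell held 11 of the 13 Il1rn UMIs, so that level too rests mostly on 1 cell.

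Tnf (ENSMUSG00000024401, chr17:35199381-35202007, minus strand) was also found mostly in myeloid cells. Macrophages or monocytes gave 17 of 25 UMIs in YKL (68.0%), 39 of 52 in PTH (75.0%) and 56 of 143 in control (39.2%). Their level was 39.6 CPM in YKL (23.1 to 63.5), 55.7 in PTH (39.6 to 76.1) and 37.3 in control (28.2 to 48.5), and the intervals overlapped. Control neutrophils had 69 Tnf UMIs (38.5 CPM), YKL neutrophils 1 and PTH neutrophils 0, which allows up to 68.7 CPM. Osteoclasts, the bone-resorbing cells, had 3 Tnf UMIs in 6 YKL cells, 6 in 14 PTH cells and 0 in 6 control cells.

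Osm (ENSMUSG00000058755, chr11:4236420-4241026, plus strand) was a myeloid transcript as well. Neutrophils gave 12 of 25 UMIs in YKL (48.0%), 20 of 39 in PTH (51.3%) and 657 of 719 in control (91.4%). Their Osm level was 194 CPM in YKL (100 to 338), 458 in PTH (280 to 707) and 367 in control (339 to 396). Unlike Il1b, Osm in PTH neutrophils had an interval that covered the control level. Per 100 Il1b UMIs of the same neutrophils there were 2.99 Osm UMIs in YKL, 3.66 in PTH and 15.0 in control. These values pool neutrophil clusters that differed widely in Il1b and that the libraries filled unequally. Macrophages or monocytes had 25.7, 22.8 and 28.0 CPM, with overlapping intervals. No chondrocyte of YKL or PTH held an Osm UMI, and 7 of 1762 in control did.

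Il1r2 (ENSMUSG00000026073, chr1:40074079-40125231, plus strand), the decoy, shared the neutrophil source. Neutrophils gave 23 of 33 UMIs in YKL (69.7%), 32 of 55 in PTH (58.2%) and 667 of 727 in control (91.7%). The level was 371 CPM in YKL (235 to 557), 732 in PTH (501 to 1034) and 372 in control (345 to 402). Ligand and decoy were found together in part of the cells: 9 of 15 YKL, 15 of 21 PTH and 189 of 459 control neutrophils held both. Il1b without Il1r2 was found in 3, 6 and 90 neutrophils, and Il1r2 without Il1b in 2, 0 and 98. Whether the overlap exceeded that of unrelated genes was not tested. Per 100 Il1b UMIs there were 5.74 Il1r2 UMIs in YKL neutrophils, 5.85 in PTH and 15.2 in control. As for Osm, these values pool the neutrophil clusters, so cluster mix and library cannot be told apart in them. Outside myeloid cells, pericytes or smooth muscle cells had 7 Il1r2 UMIs in PTH (14.8 CPM) and 8 in control (11.5 CPM), where S100a8 had 3 and 18 UMIs.

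Il6 (ENSMUSG00000025746, chr5:30013114-30019981, plus strand) had another source. No neutrophil of any library held an Il6 UMI. Endothelial cells gave 6 of 10 UMIs in YKL (60.0%), 37 of 73 in PTH (50.7%) and 9 of 28 in control (32.1%). Pericytes or smooth muscle cells gave 2, 23 and 17 UMIs (20%, 31.5% and 60.7%). The endothelial level was 15.2 CPM in YKL (5.60 to 33.2), 16.3 in PTH (11.5 to 22.4) and 7.38 in control (3.37 to 14.0). The pericyte level was 19.7 CPM in YKL (2.38 to 71.1), 48.5 in PTH (30.7 to 72.8) and 24.5 in control (14.2 to 39.2). In both classes the PTH level was above control with overlapping intervals, and the UMIs were too few for a ratio. PTH fibroblasts held 7 Il6 UMIs (2.26 CPM), YKL and control fibroblasts 0, and chondrocytes 2, 3 and 2.

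Lif (ENSMUSG00000034394, chr11:4257557-4272514, plus strand) was near the limit of detection, with 7 UMIs in YKL, 15 in PTH and 11 in control. Osteoclasts held 1, 5 and 0 of them, fibroblasts 1, 4 and 3, and chondrocytes 4, 3 and 7. No difference between libraries was detectable at this depth.

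**Figure D2:**
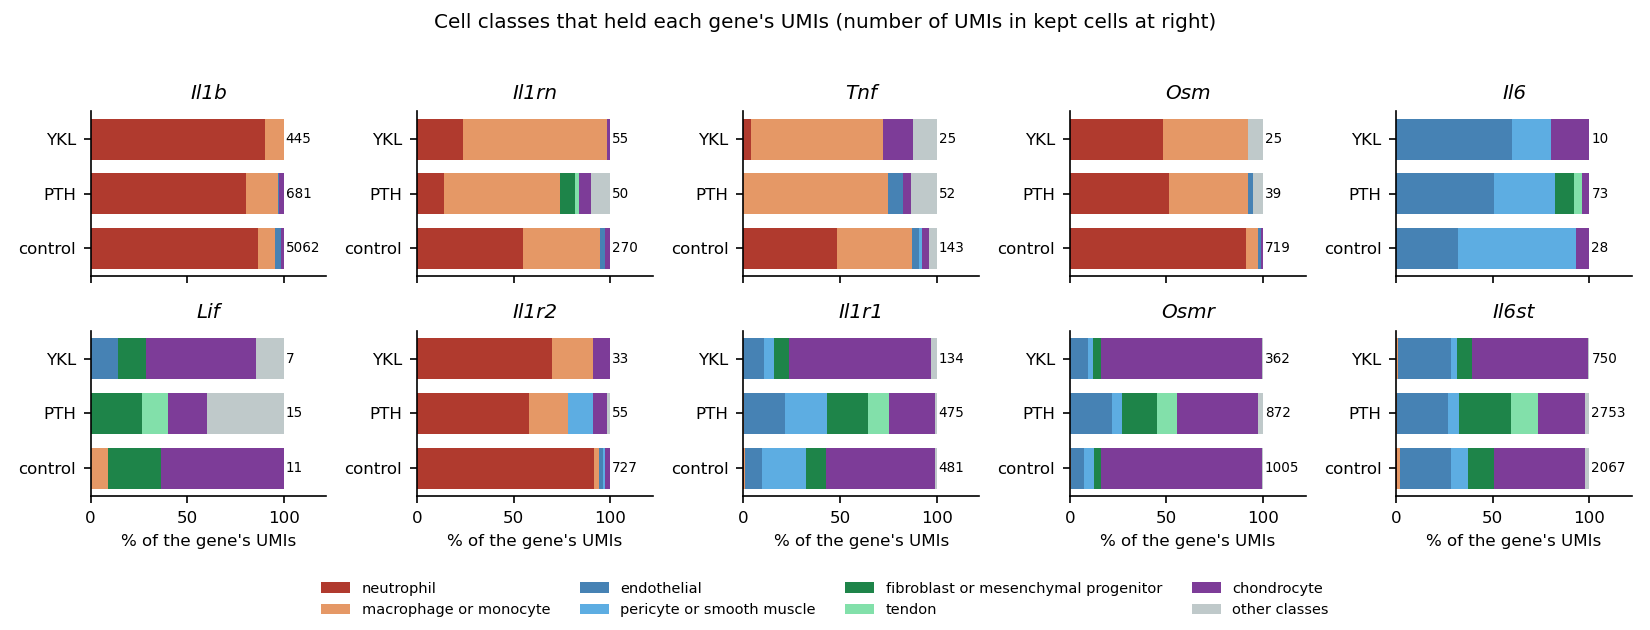
Share of each gene's UMIs that came from each cell class, as stacked horizontal bars in percent, with YKL, PTH and control from top to bottom and the number of UMIs at the right. Il1b comes mostly from neutrophils in every library (90.1%, 80.3% and 86.7%), Il6 from endothelial cells and pericytes, and Il1r1, Osmr and Il6st from chondrocytes, endothelial cells, pericytes, fibroblasts and, in PTH, tendon cells.

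RNA of the signalling receptors Il1r1, Il6st and Osmr had its highest levels in vascular and stromal classes. Receipt of a signal was not measured. Il1r1 (ENSMUSG00000026072, chr1:40225080-40317257, plus strand) was highest in pericytes or smooth muscle cells, at 68.9 CPM in YKL (7 UMIs, 27.7 to 142), 219 in PTH (179 to 266) and 160 in control (131 to 192). Endothelial cells had 35.6, 44.4 and 35.2 CPM and fibroblasts 49.6, 32.2 and 42.9 CPM. These neighbours in the order had overlapping intervals within each library. Chondrocytes had 7.11, 7.43 and 9.45 CPM, below the fibroblast interval in every library. As the largest class they still gave 73.1% of the Il1r1 UMIs in YKL, 23.8% in PTH and 56.5% in control. Neutrophils had 0 Il1r1 UMIs in YKL and PTH and 1.12 CPM in control.

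Il6st (ENSMUSG00000021756, chr13:112464070-112510086, plus strand) was highest in endothelial cells of YKL and control, at 521 CPM in YKL (452 to 597), 320 in PTH (297 to 344) and 444 in control (408 to 483). Pericytes or smooth muscle cells had 236 CPM in YKL, 331 in PTH (281 to 387) and 259 in control, and fibroblasts 248, 240 and 247. In PTH the endothelial and pericyte intervals overlapped. Schwann cells, the glia of peripheral nerve, had 165 CPM in PTH and 213 in control, and PTH tendon cells 99.4. Chondrocytes had 32.7 CPM in YKL (29.8 to 35.9), 43.4 in PTH (40.1 to 46.8) and 33.8 in control (31.7 to 35.9). Macrophages or monocytes had 21.0, 17.1 and 24.0 CPM.

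Osmr (ENSMUSG00000022146, chr15:6813577-6874969, minus strand) was at 86.4 CPM in YKL endothelial cells (59.8 to 121), 84.0 in PTH (72.5 to 96.8) and 55.7 in control (43.3 to 70.7). Pericytes or smooth muscle cells had 78.7, 97.0 and 73.4 CPM, with intervals that overlapped the endothelial ones in each library. Fibroblasts had 72.1 CPM in YKL (41.2 to 117), 50.6 in PTH (43.0 to 59.2) and 29.5 in control (20.3 to 41.4). Chondrocytes had 21.8, 24.2 and 29.2 CPM. Skeletal muscle cells had 95.7 CPM in PTH, from 18 UMIs in 28 cells. Myeloid cells held almost none, with 1 Osmr UMI in YKL, 0 in PTH and 5 in control macrophages or monocytes, so the cells with Osm and those with Osmr were different classes.

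Receptor chains were rarely seen in the same cell at equal depth. Of cells thinned to 2000 UMIs, Osmr and Il6st were found together in 4 of 42 YKL, 20 of 251 PTH and 7 of 155 control endothelial cells, and in 2 of 437, 4 of 820 and 7 of 1714 chondrocytes. Il1r1 and Il1rap were found together in no endothelial cell, in 1 PTH and 1 control pericyte, and in 2 control chondrocytes. At that depth the absence of a chain in a cell says little about that cell.

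The endothelial cells held 2 clusters with opposite order for the gp130 receptors. The larger, led by Fabp4, Plvap and Egfl7, had Il6st at 590 CPM in YKL, 354 in PTH and 497 in control, and Osmr at 70.7, 79.9 and 46.5. The smaller, led by Stmn2, Cldn5 and Cxcl12, had Il6st at 190, 120 and 150 CPM and Osmr at 161, 108 and 107. In every library Il6st was higher in the larger cluster and Osmr in the smaller, which holds 10 YKL, 39 PTH and 24 control cells. The Osmr intervals of the 2 clusters overlapped in YKL and PTH and not in control.

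Between libraries, ratios were taken for classes with at least 50 cells in both and genes with at least 50 UMIs over both, and at least 1.5-fold was counted as higher or lower. YKL against control allowed endothelial cells and chondrocytes. In endothelial cells 4 of the 10 genes could be measured: 1 was higher, where 14.2% of all genes were, and 1 was lower, where 6.51% were. The higher one was Osmr, at 86.4 CPM in YKL against 55.7 in control, a ratio of 1.55 (0.996 to 2.37). The lower one was Il1b, at 0 UMIs in YKL against 167 in control and so at least 17.95-fold lower against a floor of 3 UMIs in the YKL class, with the S100a8-rich control cells described above. Il6st had a ratio of 1.17 (0.994 to 1.38) and Il1r1 of 1.01 (0.510 to 1.88). The endothelial median over all genes was 0.12 on the log2 scale, and leaving out the 8 S100a8-rich control cells put Osmr at 1.48.

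In chondrocytes of YKL against control, 4 of the 10 could be measured, 0 were higher, where 10.2% of all genes were, and 1 was lower, where 8.02% were. Osmr was at 21.8 CPM in YKL and 29.2 in control, a ratio of 0.748 (0.654 to 0.854), and Il1r1 at 7.11 and 9.45, a ratio of 0.752 (0.591 to 0.951). Both intervals lay under 1 and neither ratio reached 1.5-fold, but Osmr was at 0.406 with cells thinned to 2000 UMIs and Il1r1 at 0.648 with at least 1000 genes a cell, both past it. Il1r1 was at 1.09 with cells named by their own marker score and at 1.05 with clusters weighted equally, on the other side of 1. Il6st did not differ beyond counting error, with a ratio of 0.970 (0.865 to 1.09). Il1b, the one past the fold, was at 0 UMIs against 62, at least 9.90-fold lower against the same floor. The measured neutrophil genes were lower in the same class, with S100a8 at 1.02 CPM in YKL and 16.8 in control.

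PTH against control allowed 5 classes. In macrophages or monocytes 4 could be measured, 0 were higher against 14.1% of all genes, and 2 were lower against 6.66%. Il1b was at 164 CPM in PTH and 292 in control, a ratio of 0.563 (0.454 to 0.692), and at 0.838 without the macrophages or monocytes rich in S100a8. Il1rn was at 42.8 CPM in PTH and 72.0 in control, a ratio of 0.595 (0.383 to 0.899), but at 1.16 as a mean over cells, 1.07 with clusters weighted equally and 0.880 at resolution 1.2. Tnf had a ratio of 1.49 (0.965 to 2.29) and Osm of 0.816 (0.428 to 1.48), with both intervals including 1. The class drew on its clusters unequally, with the cluster of C1qa, Pf4 and Trem2 holding 28 of 87 PTH and 77 of 164 control cells.

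In endothelial cells of PTH against control, 4 were measured, 1 was higher against 10% of all genes, and 1 was lower against 2.26%. Osmr was at 84.0 CPM in PTH and 55.7 in control, a ratio of 1.51 (1.14 to 2.02), and Il1b was at 2 UMIs against 167, a ratio of 0.00642 (0.000772 to 0.0236). Il6st was at 320 CPM in PTH and 444 in control, a ratio of 0.719 (0.643 to 0.806), short of the fold with an interval under 1. Il1r1 was at 1.26 (0.873 to 1.84). Osmr and Il6st, which pair to bind oncostatin M, thus stood on opposite sides of 1 in the same cells. The endothelial median over all genes was 0.13 on the log2 scale, and setting it to 0 put Osmr at 1.37 and Il6st at 0.656.

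In pericytes or smooth muscle cells 3 were measured, 0 were higher against 10.7% of all genes, and 0 were lower against 4.06%. Il1r1 had a ratio of 1.37 (1.04 to 1.81), Il6st of 1.28 (1.03 to 1.59) and Osmr of 1.32 (0.868 to 2.01). In fibroblasts or mesenchymal progenitors 3 were measured, 1 was higher against 10.1%, and 0 were lower against 7.22%. Osmr was at 50.6 CPM in PTH and 29.5 in control, a ratio of 1.72 (1.17 to 2.58), or 1.37 with cells named by their own marker score, while Il6st was at 0.974 (0.847 to 1.12) and Il1r1 at 0.751 (0.528 to 1.08). Osmr thus had ratios above 1 in the 3 vascular and stromal classes measured, with an interval that included 1 in pericytes.

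In chondrocytes of PTH against control 4 were measured, 0 were higher against 10.8% of all genes, and 1 was lower against 2.78%. The lower one was Il1b, at 16 UMIs against 62, a ratio of 0.488 (0.263 to 0.856), or 1.01 as a mean over cells, with most of those UMIs in 2 S100a8-rich cells of each library. Il6st was at 43.4 CPM in PTH and 33.8 in control, a ratio of 1.29 (1.16 to 1.42). Osmr was at 0.828 (0.731 to 0.937), or 1.01 with cells named by their own marker score, and Il1r1 at 0.785 (0.625 to 0.982). For Osmr, chondrocytes lay below 1 and endothelial cells and fibroblasts above it.

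YKL against PTH allowed endothelial cells and chondrocytes. In endothelial cells 3 were measured, 1 was higher against 8.83% of all genes, and 0 were lower against 10.6%. That one was Il6st, at 521 CPM in YKL and 320 in PTH, a ratio of 1.63 (1.39 to 1.91). Osmr was at 1.03 (0.692 to 1.49) and Il1r1 at 0.801 (0.423 to 1.41). In chondrocytes 3 were measured, 0 were higher against 5.72% and 0 were lower against 11%. Il6st there was at 32.7 CPM in YKL and 43.4 in PTH, a ratio of 0.755 (0.668 to 0.852), opposite to the endothelial cells.

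**Figure D3:**
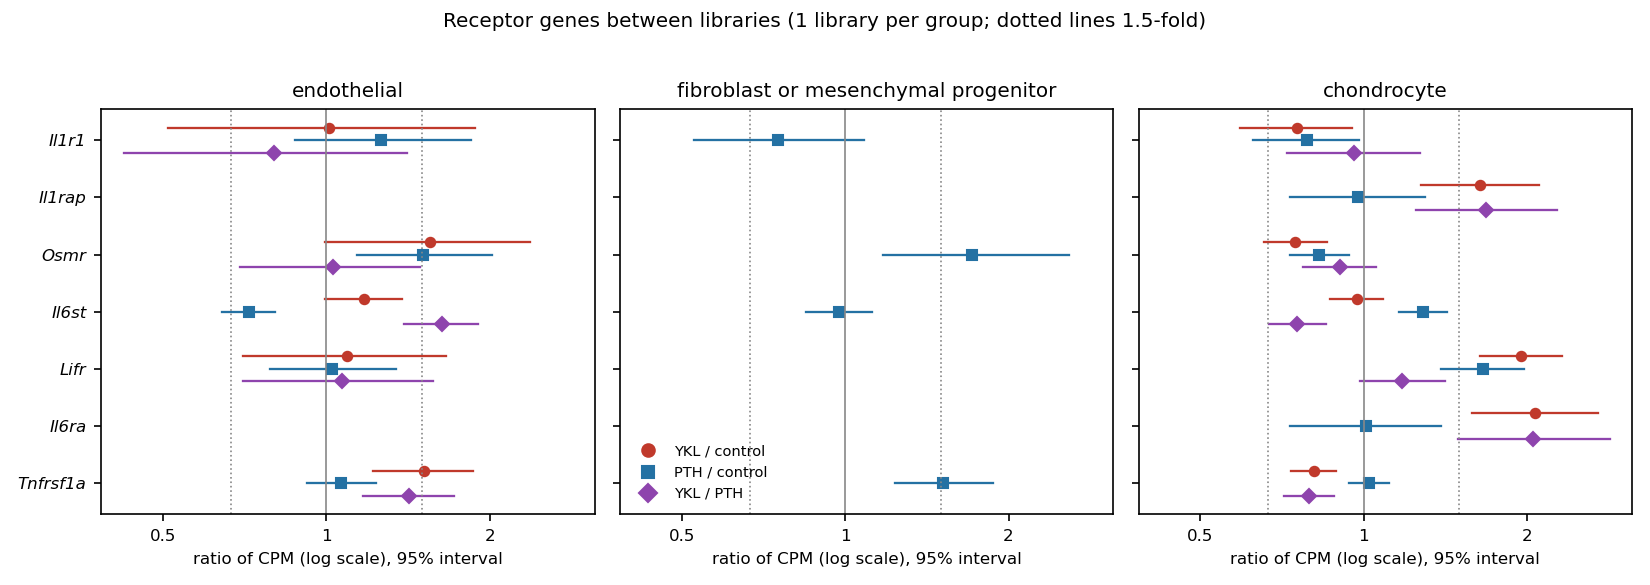
Ratios of receptor genes between libraries in endothelial cells, fibroblasts and chondrocytes, on a log axis, for YKL over control, PTH over control and YKL over PTH, with exact 95% intervals for counting error as bars, a line at 1 and dotted lines at 1.5-fold. Osmr in PTH over control lies above 1 in endothelial cells (1.51) and fibroblasts (1.72) and below 1 in chondrocytes (0.828).

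Chondrocyte ratios have to be read beside the clusters each library filled. YKL chondrocytes lay mostly in the cluster led by Ibsp, Col10a1 and Ihh, genes of hypertrophic cartilage (132 cells), in the one with Smpd3 and Panx3 (88) and in one led by Cox4i2 (79). PTH chondrocytes lay mostly in the cluster led by Ibsp, Comp and Ucma (185), in one led by Col9a3 (128) and in the hypertrophic cluster (110). Control chondrocytes lay mostly in clusters led by Ucma (342), by Cox4i2 with Ndufa4l2 (328) and by Col9a3 (310).

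Osmr varied more between these clusters than between libraries. It was at 44.6 CPM over all libraries in the Cox4i2 and Ndufa4l2 cluster and at 11.5 in the hypertrophic cluster. Within the hypertrophic cluster it was at 11.4 CPM in YKL, 8.76 in PTH and 14.0 in control. Il6st was highest in the cycling cluster with Cenpf and Top2a, at 51.8 CPM in YKL, 77.0 in PTH and 63.1 in control, and was at 25.5, 22.2 and 25.4 CPM in the hypertrophic cluster. Il1r1 was also highest in the cycling cluster, at 15.0 CPM over all libraries, and was at 5.18 in the hypertrophic cluster. All 3 receptors were thus lower in the hypertrophic cluster than over the chondrocytes of any library.

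**Figure D4:**
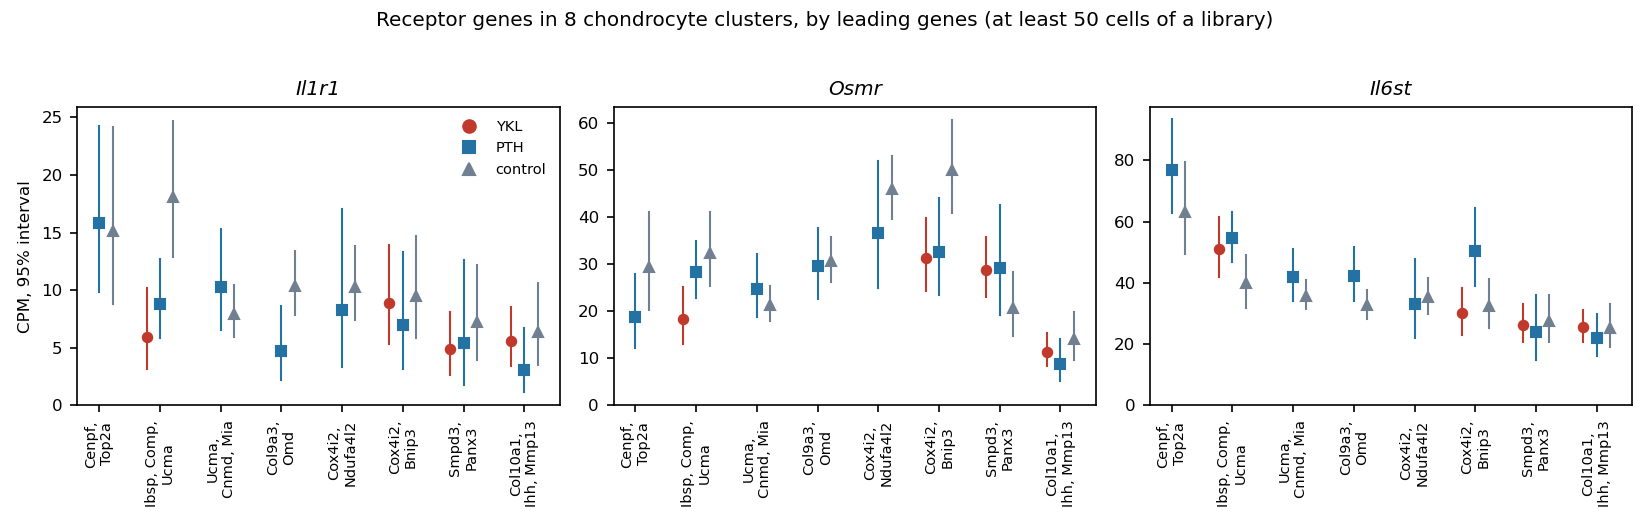
Il1r1, Osmr and Il6st CPM in 8 chondrocyte clusters named by leading genes, by library (YKL, PTH, control from left to right) where at least 50 cells of a library were in the cluster, with exact 95% Poisson intervals as bars. The hypertrophic cluster with Col10a1, Ihh and Mmp13 has Osmr at 11.4, 8.76 and 14.0 CPM, below the Cox4i2 and Ndufa4l2 cluster at 36.6 in PTH and 45.9 in control.

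Cells named by their own marker score gave an osteoblast-lineage class of 165 YKL, 259 PTH and 238 control cells, which the clusters did not separate. Its markers Ibsp and Alpl were also among the leading genes of chondrocyte clusters. The osteoblast markers summed to 12808 CPM in YKL, 14351 in PTH and 7021 in control cells of the chondrocyte class. The class may therefore hold chondrocytes, which was not tested. The Il6st level in the osteoblast-lineage class was 33.9 CPM in YKL, 40.7 in PTH and 29.4 in control. Osmr was at 16.5, 17.6 and 22.8 CPM and Il1r1 at 5.43, 5.61 and 7.43.

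The partner chains and receptors outside the 10 had their own pattern. Il1rap, the accessory chain of Il1r1, was highest in Schwann cells, at 84.3 CPM in PTH and 47.2 in control, where Il1r1 was at 0 and 14.2. Il6ra, the chain that binds interleukin 6, was at 37.3 CPM in YKL, 72.8 in PTH and 72.7 in control macrophages or monocytes. Lifr, the chain for Lif, was at 78.8, 73.9 and 72.1 CPM in endothelial cells. In chondrocytes Il1rap had a YKL to control ratio of 1.64 (1.28 to 2.10), Il6ra of 2.07 (1.59 to 2.70) and Lifr of 1.95 (1.64 to 2.32). For PTH against control the chondrocyte ratios were 0.977, 1.01 and 1.66. Tnfrsf1a was at 341 CPM in YKL, 240 in PTH and 225 in control endothelial cells, a YKL to control ratio of 1.51 (1.22 to 1.86). Il11, another gp130 ligand, was at 6.97, 7.62 and 8.66 CPM in chondrocytes, and Il1a had 0 UMIs in kept YKL and PTH cells and 6 in control.

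The wider pathway lists were counted in the same way. Of IL-6 family genes in chondrocytes of YKL against control, 14 were measured, 4 were higher, beside 10.2% of all genes, and 2 lower, beside 8.02%. For PTH against control 14 were measured, 2 were higher, beside 10.8% of all genes, and 0 lower, beside 2.78%. Socs3 was among the higher in both, at 57.8 CPM in YKL, 62.6 in PTH and 28.8 in control, with ratios to control of 2.005 (1.82 to 2.21) in YKL and 2.17 (1.98 to 2.39) in PTH. In endothelial cells Socs3 was at 91.5 CPM in YKL, 145 in PTH and 54.1 in control, with ratios of 1.69 (1.09 to 2.58) and 2.68 (2.05 to 3.55). Il11ra1, the Il11 receptor chain, was at 30.1 CPM in YKL, 56.4 in PTH and 46.3 in control chondrocytes. The ratios of YKL and PTH share the control library.

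Of STAT3 target genes in chondrocytes, 8 were measured and 3 were higher in YKL against control and 1 in PTH against control, beside 10.2% and 10.8% of all genes, with none lower, beside 8.02% and 2.78%. Junb was at 892 CPM in YKL, 667 in PTH and 473 in control, and Cebpb at 109, 67.4 and 68.5. Junb is also a gene of tissue digestion. Of 16 digestion and heat shock genes, 7 were higher in YKL and 3 in PTH chondrocytes, with none lower, beside the same shares of all genes. Fos was at 1632, 1571 and 1021 CPM. In fibroblasts of PTH against control 5 of 8 STAT3 targets and 9 of 14 digestion genes were higher, beside 10.1% of all genes, and 0 of each were lower, beside 7.22%. The part of digestion in the Socs3 and Junb values was not tested.

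Of NF-kB genes, 17 were measured in chondrocytes, with 3 higher and 2 lower in YKL against control, beside 10.2% and 8.02% of all genes, and 4 higher and 1 lower in PTH against control, beside 10.8% and 2.78%. These shares also stand beside the next counts. Nfkbia, the NF-kB feedback inhibitor, was at 86.6 CPM in YKL, 71.1 in PTH and 60.6 in control. Of TNF receptor and signalling genes, 9 were measured, with 0 past the fold in YKL and 1 higher in PTH. Of IL-1 family genes, 10 were measured in YKL with 2 higher and 2 lower, and 11 in PTH with 2 higher and 0 lower. Il33, an alarm cytokine of stromal cells, was at 168 CPM in PTH and 138 in control fibroblasts, and Nlrp3, the sensor of the inflammasome that activates interleukin 1 beta, at 618 CPM in PTH (27 UMIs) and 183 in control neutrophils. The median log2 ratio in YKL chondrocytes was 0.24 for the IL-1 list, 0.16 for IL-6, 0.03 for TNF, 0.23 for NF-kB and 0.08 for STAT3, beside 0.003 over all genes. In PTH chondrocytes it was 0.25 for IL-1, 0.03 for IL-6, 0.06 for TNF, 0.20 for NF-kB and -0.03 for STAT3, beside 0.06 over all genes. The digestion list had 0.54 in YKL and 0.45 in PTH chondrocytes.

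In endothelial cells the IL-6 list had 2 of 8 measured genes higher in YKL and 2 of 9 in PTH against control, beside 14.2% and 10% of all genes, with 0 lower in each, beside 6.51% and 2.26%, and medians of 0.16 and 0.14 beside 0.12 and 0.13 over all genes. The TNF list had 1 of 6 higher and 1 lower in YKL, and 0 of 10 higher and 2 lower in PTH. The digestion list had 1 of 14 genes higher and 1 lower in YKL, and 6 of 15 higher and 0 lower in PTH. The same shares of all genes stand beside these counts.

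RNA of neutrophils and red cells differed between libraries too. In chondrocytes and in endothelial cells 6 of the 9 listed neutrophil genes and all 4 haemoglobin genes could be measured. All of these were at least 1.5-fold lower in YKL and in PTH than in control. Of all genes, 8.02% were lower in YKL and 2.78% in PTH chondrocytes, and 6.51% and 2.26% in endothelial cells.

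The genes whose levels were most alike were ranked by the Pearson correlation of log2(CPM + 10) over 21 class and library sums, which share libraries and depth. For Il1b these were Slc7a11 (0.984), Ccr1 (0.981) and Clec4e (0.977), for Osm Mmp8 (0.994), F630028O10Rik (0.991) and Cd33 (0.990), and for Il1r2 Padi4 (0.976), Trim30b (0.969) and Cyp4f18 (0.964). For Il1rn they were Lilrb4a (0.991), Fgr (0.988) and Clec4d (0.986), and for Tnf Susd3 (0.920), Bcl2a1b (0.907) and Atp8b4 (0.901). Il6 had Abcc9 (0.955), Cyp4b1 (0.949) and Sept4 (0.947), and Il1r1 had Adcy6 (0.949), Klhdc8b (0.938) and Sept4 (0.933), so Sept4 stood on both lists. Il6st had Kctd17 (0.976), Prss23 (0.958) and Adamts1 (0.954), and Osmr had Airn (0.947), Phldb2 (0.939) and Tanc1 (0.938). Lif, with few UMIs, had Hs6st2 (0.873), Msc (0.864) and Iffo1 (0.832).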

How the data were processed

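The deposited matrices hold raw UMI counts of single cells from 10x Genomics libraries. Per the file headers they were written by Cell Ranger 4.0.0, and the submitters' processing notes also name Seurat and mm10. No counts were altered before summing. Barcodes under 500 genes, over 10% mitochondrial UMIs or marked by Scrublet were dropped, and the rest scaled to 10000 UMIs. Leiden clustering (resolution 0.8) used 2000 variable genes without the 10 members, 30 components and 15 neighbours, in scanpy 1.11.5, and myeloid cells were clustered again. Classes needed 3 detected markers of their own among 146 markers of 17 classes. UMIs were summed by class and library and given as CPM with exact Poisson intervals, shares with Clopper-Pearson intervals and ratios with exact conditional binomial intervals, at 95%. A count of 0 was set to a floor of 3 per class and library. Named genes were the 10 members, their receptor partners, the ligands Il1a and Il11, the 4 highest genes of each of 8 lists and the 3 genes most alike. Members and lists were chosen with earlier results of these data known. The ratio code was tested on simulated data. Sequences were taken from RefSeq tables of GRCm38.p6, which held 9 of the 10 members. PCR copies are collapsed by the UMIs, and intervals and floors cover counting error only. No test across samples was run, since each group is 1 library. Alternatives to the filters, resolution, naming, scaling and thinning are given in the closing section.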

Additional observations from a re-analysis of the deposited data

Results flagged for a closer look

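In the PTH library, barcodes left out by the filters held members above the level of the left-out control barcodes, with intervals that did not overlap. Il1b was at 68.0 CPM in left-out PTH barcodes and 47.4 in left-out control barcodes, beside 25.5 and 141 in kept cells. Of the PTH UMIs, 348 came from barcodes with over 10% mitochondrial UMIs and 140 from those under 500 genes. Il1r1 was at 10.0 CPM in left-out PTH barcodes and 3.43 in control, Il6 at 1.53 and 0.215, Il6st at 78.5 and 34.6, and Osmr at 23.4 and 5.37. In YKL none of the 10 stood above control in this comparison with intervals apart. The left-out barcodes were 2848 under 500 genes and 525 others over 10% mitochondrial UMIs in PTH, and 4585 and 492 in control. The share of all genes that stood apart in this way was not taken. Whether the members differed from other genes here was therefore not tested.

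The same comparison gave opposite directions in different classes for 4 sets of ratios, and the difference between classes was not tested. For Il1r1 in PTH against control, pericytes or smooth muscle cells had 1.37 and chondrocytes 0.785. For Il6st in PTH against control, pericytes had 1.28 and chondrocytes 1.29, while endothelial cells had 0.719. For Osmr in PTH against control, endothelial cells had 1.51 and fibroblasts 1.72, while chondrocytes had 0.828. For Il6st in YKL against PTH, endothelial cells had 1.63 and chondrocytes 0.755.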

How the results depend on the processing

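The 32 member ratios were recomputed under alternative settings, which gave 453 values. Of these, 405 stayed within the interval of the main ratio, 45 moved out of it and 3 turned the direction of a ratio past 1.5-fold. The last were Il1rn in macrophages or monocytes of PTH against control, at 1.16 as a mean over cells and 1.07 with clusters weighted equally, and Il1b in chondrocytes, at 1.01 as a mean over cells. Across the 1.5-fold line, so with a changed call, lay 51 of the 453 values, from 20 of the 32 ratios. Ratios short of 1.5-fold crossed 1 in other alternatives, among them Il1r1 in chondrocytes of YKL against PTH in 7 and in endothelial cells of YKL against control in 5. Of YKL against control, 3 of 8 gene and class pairs passed 1.5-fold: 1 of 4 at 5% mitochondrial UMIs, 0 of 3 with cells named by their own score, 1 of 2 when thinned, and 0 of 6 without the other cells rich in S100a8, an alternative chosen after seeing the data. Of PTH against control, 6 of 18 passed, with 10 of 19 at 1000 genes, 3 of 13 by own score, 3 of 8 thinned, 3 of 16 without those S100a8-rich cells and 2 of 18 at 2-fold. Of YKL against PTH, 1 of 6 passed, with 0 of 3 at 5% mitochondrial UMIs, 0 of 6 at 1000 genes, with Scrublet-marked barcodes kept, as a mean over cells or at 2-fold, 2 of 2 when thinned and 2 of 6 with clusters weighted equally. The share of all genes past the fold was taken only per class in the main setting, as given above, and not for these pooled counts. The counts therefore show how the calls moved with the settings, not whether the members stood out from all genes. The neutrophil share of Il1b was 58.5% in YKL at 1000 genes, 74.8% by own score and 93.5% thinned. In PTH it was 29.8% at 1000 genes, 53.8% at 5% and 83.9% at 20% mitochondrial UMIs, and 54.2% by own score. In control it was 87.7% at 200 genes, 40.9% at 1000, 83.2% at 5% mitochondrial UMIs, 82.4% with Scrublet-marked barcodes, 80.9% at resolution 1.2, 65.6% by own score, 90.3% thinned, 90.2% without the other S100a8-rich cells and 89.9% without such macrophages. The median cell had 663 genes in the neutrophil cluster with Ccl4, 847.5 in the cluster of 200 and 1130 in the cluster with Camp. The part of these gene numbers in the shares at 1000 genes was not tested. Other source shares moved with the settings as well. The neutrophil share of Osm was 15% to 81.25% in PTH, and that of Il1rn 22.7% to 78.0% in control. The macrophage or monocyte share of Tnf was 8% to 68% in YKL, and the chondrocyte share of Osmr 20.7% to 83.1% in YKL. A narrower range was that of the endothelial share of Il6 in PTH, 35.6% to 53.4%. The Osmr ratio in endothelial cells was under 1.5 in 7 alternatives of YKL (1.22 to 1.48) and 7 of PTH against control (1.22 to 1.48). No paired analysis was possible because each group is 1 library. Few YKL myeloid and stromal cells limit that library.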
